A study of Mus musculus with 35 samples.

Results

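The cytosolic ribosomal protein genes, which encode the proteins of the ribosomes in the cytoplasm, were examined in mouse liver after inhaled styrene. They were taken as genes with a symbol of Rpl or Rps and a number. At most 1 of the letters a, x, y or l could follow, with or without another number, so Rpl36al was not taken. Rplp0, Rplp1, Rplp2 and Rpsa were added, and pseudogenes were left out. Each gene had to be named alone by at least 1 probe set of the array. This gave 70 genes of the 17097 that a probe set named alone, 45 of the large subunit and 25 of the small. A probe set is a group of short probes that read 1 transcript near its 3' end. The 70 genes had 133 such probe sets, and each gene was read by the one with the highest mean over all arrays. Values are on a log scale taken as log2.

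The study compared 7 groups of 5 adult male wild-type C57Bl/6 mice, an inbred laboratory strain, with 1 liver array per mouse. One group breathed air and the others styrene at 1, 5, 10, 20, 40 or 120 ppm, once, for 6 hours, each mouse in a cage of its own, and all were killed the next morning. Styrene, from which polystyrene is made, is oxidised in liver and lung. The comparisons ask which liver transcripts differed from air at each concentration. The labels call the 5 samples of a group biological replicates.

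A ribosome is built from ribosomal RNA and a copy of nearly every ribosomal protein, so the cell makes these proteins in matched amounts. Their messenger RNAs are among the most abundant in liver and carry at the 5' end a run of pyrimidines, the terminal oligopyrimidine or TOP motif, through which mTOR and LARP1 control their translation. In fed, growing tissue this group takes a large part of the cell's transcription and translation.

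Start-site sequences are printed first to show a pyrimidine run near the annotated start, in members that fell and in members that did not. The ribosomal protein genes held such a run more often than genes in general. RefSeq start sites of the GRCm38.p6 assembly were found for 56 of the 70 genes. All 8 sequences shown were picked among genes with such a run and a mean log2 value of 10 or more. The first 4 belong to the largest falls among those that passed the test at 120 ppm, and the last 4 to the smallest changes. Rps26 and Rpl7a are outside the rule for named genes and were chosen after their values were seen. Each runs 5' to 3' on the gene's strand, from 40 bases before the annotated start to 20 bases after it. Capitals mark the longest run of at least 8 C or T bases that opens with C and touches the 10 bases on either side of the start.
Rpl13, chr8:123102310-123102369, plus strand: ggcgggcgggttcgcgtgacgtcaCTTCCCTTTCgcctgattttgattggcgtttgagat
Rpl35, chr2:39005112-39005171, minus strand: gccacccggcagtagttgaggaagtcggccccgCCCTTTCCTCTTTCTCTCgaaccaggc
Rps12, chr10:23787190-23787249, minus strand: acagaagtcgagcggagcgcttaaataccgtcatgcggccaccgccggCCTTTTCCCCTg
Rps26, chr10:128626487-128626546, minus strand: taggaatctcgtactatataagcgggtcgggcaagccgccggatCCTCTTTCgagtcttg
Rps6, chr4:86857348-86857407, minus strand: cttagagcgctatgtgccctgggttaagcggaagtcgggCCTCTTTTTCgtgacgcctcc
Rpl7a, chr2:26910767-26910826, plus strand: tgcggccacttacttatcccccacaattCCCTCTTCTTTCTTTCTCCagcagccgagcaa
Rpl31, chr1:39367811-39367870, plus strand: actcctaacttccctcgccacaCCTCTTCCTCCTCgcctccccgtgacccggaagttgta
Rpl4, chr9:64173347-64173406, plus strand: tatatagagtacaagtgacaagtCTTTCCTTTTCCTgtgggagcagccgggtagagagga

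A run of this kind was present in 26 of the 56 genes (46.4%), against 12.5% of 27025 genes in the same table. The longest run of Rpl7a, 19 bases, spans the start, and so does that of Rpl35, 18 bases. Among the other sequences shown, that of Rps6 spans it too. The runs of Rpl13, Rpl31 and Rpl4 end before the annotated start, and those of Rps12 and Rps26 begin after it. A run counted here therefore need not be a TOP motif. The 56 genes also held CCGGAAG, the core read by ETS factors such as GABPA, more often than all genes, in 44.6% against 9.93%. AAGATGG, a core of the YY1 motif, was in 16.1% against 7.28%, and GGGCGG, the SP1 box, in 60.7% against 38.2%. TATAAA was in 12.5% of the 56 genes and in 15.7% of all. The 70 genes lie on 19 chromosomes, at most 9 of them, on chromosome 7, together. The motif letters were searched on both strands, from 250 bases before to 50 after the start, and matches of different motifs can overlap. Runs were slightly less common among the genes that fell at 120 ppm, a difference that was not tested. Of the 22 genes that fell, 17 had a start site, and 7 of these held a run (41.2%). Of 39 with a start site that did not pass the test, 19 did (48.7%). The median log2 change was -0.116 in genes with a run and -0.131 in genes without one. A match is only a description of the letters, and annotated starts can lie some bases from the starts used in liver.

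At 120 ppm, 22 of the 70 ribosomal protein transcripts were lower than in air and 0 were higher (limma, Benjamini-Hochberg adjusted p under 0.05 over all 45037 probe sets, the threshold used throughout). The falls were shallow. The 20 of them with a mean log2 value of 10 or more lay between 0.18 and 0.32 below air, and the largest change of any of the 65 members at that level, in either direction, was 0.313. Among these 65 members the largest falls were those of Rpsa, a small-subunit protein also known as the laminin receptor, with 19.5% less than in air, and of the large-subunit protein Rpl13, with 19.1% less. The background was 6.4% of probe sets lower and 13% higher, and 12.3% lower within the brightest 25% of probe sets, which takes in those 65 members. The members' share was 31.4%. Their median log2 change was -0.13, against 0.058 over all probe sets and 0.012 over the brightest 25%, and 63 of the 70 changes were below 0. An unadjusted p under 0.05 was reached by 34 members, all lower. The share of all probe sets at an unadjusted p was not counted, here or at other concentrations. The members also vary together, so such counts are descriptions only. The count of 22 became 14 without air replicate 2 or without air replicate 3, and 11 when the air and 120 ppm arrays were fitted alone. How many of all probe sets passed in such refits was not counted, here or at other concentrations.

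**Figure D1:**
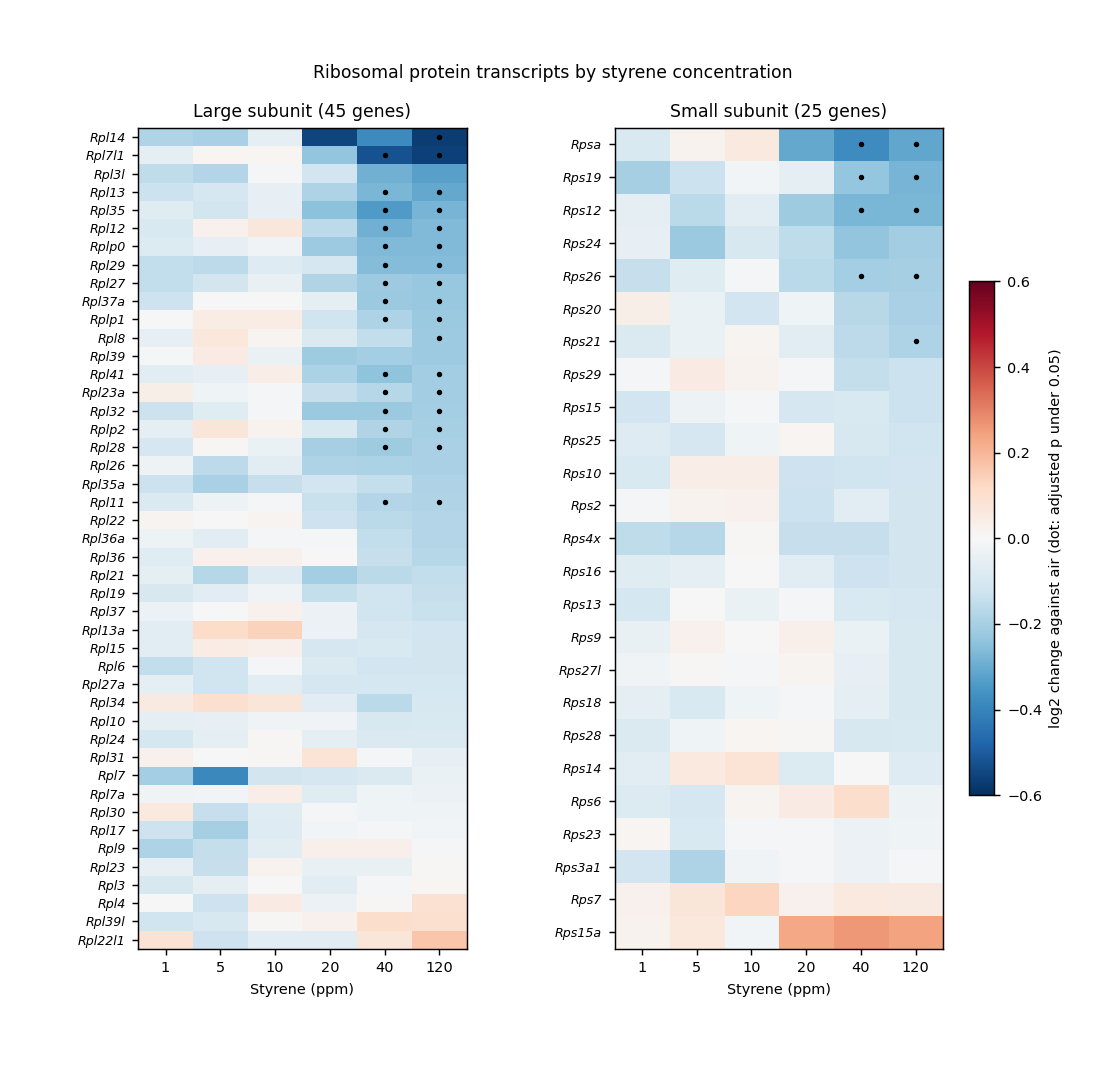
Log2 change of each of the 70 transcripts against air (colour, from -0.6 in blue to 0.6 in red) at each styrene concentration in ppm, large subunit on the left and small subunit on the right, ordered by the change at 120 ppm. Dots mark an adjusted p under 0.05 and appear at 40 ppm for 19 genes and at 120 ppm for 22, all of them lower.

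Rpl13, which had a larger fall than the median member (-0.13), shows that fall against the spread of the mice. Its log2 values in air were 11.54, 11.65, 11.63, 11.51 and 11.54. At 120 ppm they were 11.24, 11.21, 11.23, 11.34 and 11.31, so that every exposed liver lay below every air liver. The difference was -0.31 ± 0.061 (SE; adjusted p = 0.000816), the smallest adjusted p of any member. At 40 ppm the values were 11.29, 11.31, 11.27, 11.37 and 11.25, again all below air (-0.27 ± 0.061, adjusted p = 0.00279). At 1, 5 and 10 ppm the values ran from 11.36 to 11.52, from 11.44 to 11.55 and from 11.44 to 11.7, and each of these ranges overlapped that of air. Another Rpl13 probe set, with a mean of 7.689, had -0.258 at 120 ppm and did not pass (adjusted p = 0.173).

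Separation of this kind was common in the group. In 25 members every 120 ppm array lay below every air array, which 4.73% of all probe sets showed. At 40 ppm it held for 21 members, against 4.22% of all probe sets.

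At 40 ppm, 19 members fell (27.1%) and 0 rose, where 4.89% of all probe sets were lower, 9.73% were higher and 9.09% were lower within the brightest 25%. The median change was -0.13, against 0.04 over all probe sets. Rpl35, which stands beside the exit of the peptide tunnel, had the smallest adjusted p. Its air values were 11.88, 12.09, 11.95, 11.8 and 11.88, and its 40 ppm values 11.47, 11.58, 11.65, 11.63 and 11.57, with no overlap (-0.34 ± 0.072, adjusted p = 0.00188). All 19 were also lower at 120 ppm, and Rpl8, Rpl14 and Rps21 passed at 120 ppm alone. Rpl8 and Rps21 are named outside the rule, after their values were seen. Both comparisons use the same air arrays, so this overlap is a description. The count at 40 ppm was 10 without air replicate 3 and 11 when its arrays and those of air were fitted alone.

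The step from 40 to 120 ppm brought no further change past the threshold. In limma's direct comparison of those groups 0 members passed, 0 had an unadjusted p under 0.05, and the median difference was -0.007. Rps6 had the smallest adjusted p, 0.93. The background there was 0.0244% of probe sets.

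At 20 ppm 0 members passed in limma's test, where 1.03% of all probe sets did. An unadjusted p under 0.05 was reached by 20 members, all lower, and the median change was -0.085 against 0.015 over all probe sets. Rpsa came closest. Its 20 ppm values, 11.6, 11.54, 11.76, 11.59 and 11.39, overlapped the air values of 11.98, 11.92, 12.03, 11.77 and 11.71 at 1 liver (-0.31 ± 0.081, adjusted p = 0.0546). In 4 members, Rpl26, Rps12, Rps24 and Rps4x, every 20 ppm array lay below every air array, against 0.946% of probe sets; Rps24 and Rps4x are named after their values were seen. The count of 0 is not stable at this concentration. It became 5 without replicate 3 of the 20 ppm group (Rpl35, Rplp0 and Rpsa, with Rpl32 and Rpl41, named because of this count) and 1 (Rpsa) without air replicate 5, and 1 or 2, Rpsa among them, under several other settings. In the step from 20 to 40 ppm 0 members passed (4 at an unadjusted p under 0.05, all lower), where 0.373% of probe sets did, and the smallest adjusted p was 0.212 for Rps19.

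At 1, 5 and 10 ppm 0 members passed in limma's test, where 0.00444%, 0.153% and 0% of probe sets did. The median changes were -0.07, -0.052 and -0.006. An unadjusted p under 0.05 was reached by 7 members at 1 ppm and 7 at 5 ppm, all lower, and by 1 at 10 ppm, Rps7, which was higher. With no share of all probe sets at that level beside them, these counts show no trend. The smallest adjusted p was 0.639 (Rps19) at 1 ppm, 0.48 (Rpl29) at 5 ppm and 0.774 (Rps7) at 10 ppm. The SE of a single change had a median of 0.067 over the 65 members of higher level, so changes as small as these medians were not detectable in a single gene.

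**Figure D2:**
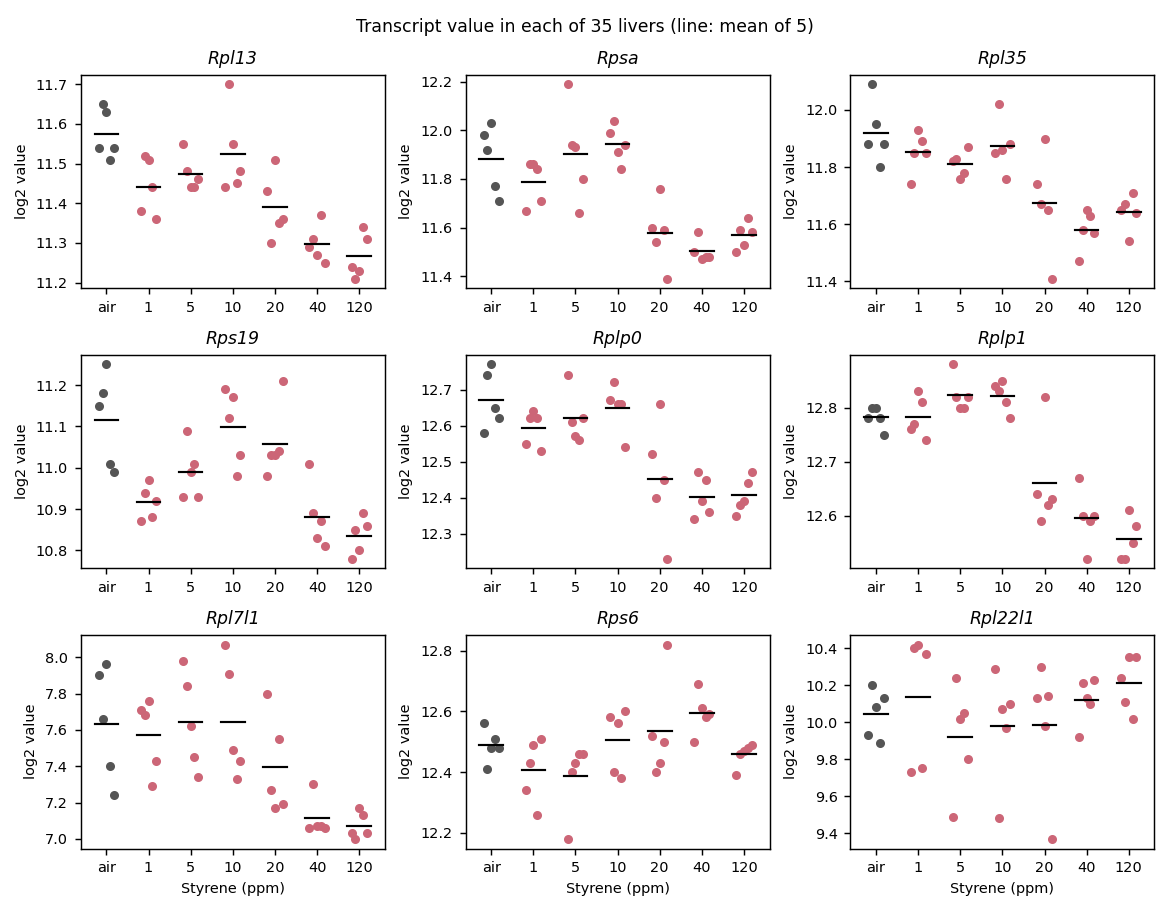
Log2 value in each of the 35 livers for 9 ribosomal protein transcripts by styrene concentration (ppm), with air in grey, exposed livers in red and a line at each group's mean; each panel has its own vertical scale, which does not start at 0. In Rpl13, Rpl35, Rpsa, Rplp0, Rplp1, Rps19 and Rpl7l1 all 5 livers at 120 ppm lie below all air livers, while Rps6 and Rpl22l1 overlap with air at that concentration.

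Over the whole series the F test, which asks whether any group differed, called 21 members, where 20.4% of all probe sets passed. A slope on log2(ppm + 1) fell in 30 members and rose in 2, Rpl39l and Rps15a, both close to the floor of the array. Among all probe sets 10.8% had a falling slope and 21.2% a rising one.

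The median of the arrays moved too, and the count depends on how this is treated. The median of all probe sets on an array stood at 3.503 ± 0.0194 (SD, n = 5) with air alone. It rose to 3.572 ± 0.0209 with 40 ppm and to 3.598 ± 0.0274 with 120 ppm. An exact permutation test over the 252 divisions of 10 arrays, two-sided, gave p = 0.00794 for either rise, the smallest it can give, or 0.0286 after adjustment over 18 such tests. With each array centred on its own median, 49 members were lower at 120 ppm, 31 at 40 ppm and 1 (Rpsa) at 20 ppm, and 0 were higher. The median member change became -0.22 at 120 ppm and -0.20 at 40 ppm, against -0.037 and -0.029 over all probe sets. Centring turned the balance of all calls at 120 ppm from 5846 higher and 2881 lower to 2943 higher and 5560 lower, and at 40 ppm from 4384 and 2202 to 2712 and 3863. Of all probe sets, 12.3% were then lower and 6.53% higher at 120 ppm, 8.58% lower and 6.02% higher at 40 ppm, and 0.833% lower at 20 ppm. Every member that passed was lower under both scalings, and centring added to their number.

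**Figure D3:**
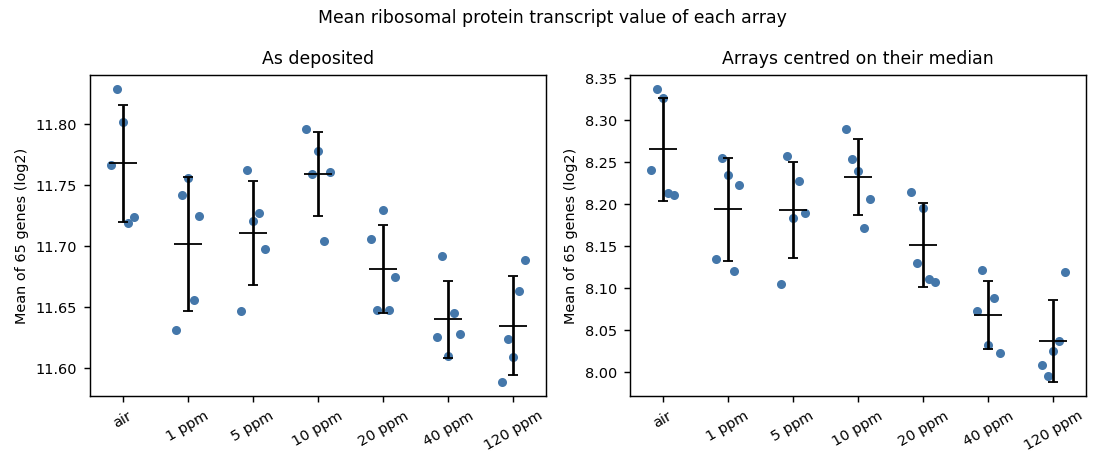
Mean log2 value of the 65 members with a mean of 10 or more on each array by group, as deposited (left) and after subtraction of each array's median (right); points are mice, horizontal lines group means and bars 1 SD, and the axes do not start at 0. The 40 ppm arrays (11.61 to 11.692 as deposited) and the 120 ppm arrays (11.589 to 11.689) lie below every air array (11.719 to 11.829) in the left panel.

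The mean over those 65 members was 11.768 ± 0.048 (SD, n = 5) in air and lay at 11.702 ± 0.0553 at 1 ppm, 11.711 ± 0.043 at 5 ppm and 11.76 ± 0.0345 at 10 ppm. At the higher concentrations it stood at 11.681 ± 0.0363 (20 ppm), 11.64 ± 0.0317 (40 ppm) and 11.635 ± 0.0408 (120 ppm). The groups at 1, 5 and 10 ppm overlapped air, and so did 20 ppm, whose highest array was at 11.73. The ranges of 40 and 120 ppm lay wholly below it. After centring the air arrays ran from 8.211 to 8.337, those of 40 ppm from 8.023 to 8.122 and those of 120 ppm from 7.996 to 8.119.

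Some further measures moved with concentration and are given beside these counts. Control probe sets at the 3' and 5' ends of actin, whose difference grows as RNA breaks down or labelling shortens, differed by 0.478 ± 0.0475 (SD, n = 5) in air and by 0.724 ± 0.109, 0.706 ± 0.0702 and 0.717 ± 0.0506 at 20, 40 and 120 ppm, each above air (adjusted p = 0.0286 by the same exact test). The same difference for GAPDH was 0.147 ± 0.0471 in air and 0.12 ± 0.0484 at 120 ppm (adjusted p = 0.505 by the exact test). At 20 ppm the GAPDH difference was -0.402 in replicate 5 and 0.125 to 0.172 in the other arrays. Without replicate 5 the count of members lower at 20 ppm was again 0. Of 11 Kupffer cell markers, which label the resident macrophages of liver, 5 fell and 0 rose at 120 ppm, with a median of -0.46. Their mean level ran from 6.71 to 7.72 in air and from 6.24 to 6.95 at 120 ppm. In bulk tissue fewer cells of a type and less RNA per cell cannot be told apart. Of 7 hepatocyte markers 0 passed, 2 having an unadjusted p under 0.05, and their mean level was 11.84 to 11.92 in both groups. Those 2 were Ttr, lower (-0.11), and Pck1, higher (0.29) at a low air mean of 3.02. Alb, Apoa1, Ttr, Serpina1a and Cps1 had air means of 13.07 to 13.93, close to the highest value of the arrays, 14.23. On centred arrays 3 of these 7 (Ttr, Serpina1a and Ass1) and 7 of the 11 Kupffer cell markers were lower. Among 9 sinusoidal endothelial markers 2 fell, among 9 stellate cell markers 1 fell, among 3 erythroid markers 1 fell and among 6 markers of exocrine pancreas 2 fell, with no rise in these lists. Of 9 neutrophil markers 1 rose and of 5 B cell markers 2 rose and 1 fell, while 0 of 5 cholangiocyte and 0 of 8 T and NK cell markers passed. The numbers in the sample titles rise with concentration, so any effect of that order and the styrene concentration cannot be told apart. The part of these measures in the ribosomal protein result was not tested.

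Between the subunits, 17 of 45 large-subunit members (37.8%) and 5 of 25 small-subunit members (20%) were lower at 120 ppm, with medians of -0.17 and -0.11. At 40 ppm these were 15 of 45 (33.3%, median -0.15) and 4 of 25 (16%, median -0.095). After centring the counts at 120 ppm were 31 of 45 and 18 of 25. The difference between the subunits was not tested.

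Every measured transcript of the lateral stalk of the large subunit fell. The stalk recruits the elongation factors that drive translation. Rplp0 is its stem, Rplp1 and Rplp2 its flexible acidic tips, and Rpl12 lies at its base. All 4 were lower at 120 ppm and at 40 ppm, with medians of -0.24 and -0.23.

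Rplp1 had the tightest air values of the stalk genes, 12.78, 12.8, 12.8, 12.78 and 12.75. At 120 ppm it stood at 12.52, 12.52, 12.61, 12.55 and 12.58, a fall without overlap (-0.22 ± 0.053, adjusted p = 0.00358). At 20 ppm 4 of its 5 arrays, between 12.59 and 12.64, were already below all of air, and replicate 3, at 12.82, was above it. Rplp0 read 12.58, 12.74, 12.77, 12.65 and 12.62 in air and 12.35, 12.38, 12.39, 12.44 and 12.47 at 120 ppm, again without overlap (-0.26 ± 0.066, adjusted p = 0.00523). Rpl12 went from 10.48, 10.55, 10.54, 10.34 and 10.29 to 10.03, 10.22, 10.17, 10.22 and 10.25 (-0.26 ± 0.076, adjusted p = 0.0145). Rplp2 had the smallest change of the stalk genes, -0.20 ± 0.063 (adjusted p = 0.0259), and its call ended without air replicate 2 or 3 (adjusted p up to 0.0682), after a second quantile normalization and with the air and 120 ppm arrays alone (up to 0.0745).

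Around the exit of the peptide tunnel, where the signal recognition particle and chaperones meet the nascent chain, 2 of 7 members fell at 120 ppm as deposited and 5 of 7 on centred arrays. Rpl35 fell by 0.28 (SE 0.072, adjusted p = 0.00729), with values of 11.65, 11.67, 11.54, 11.71 and 11.64 below all air values. Rpl23a, a docking site of the signal recognition particle, fell by 0.21 (SE 0.058, adjusted p = 0.0116). Its air values were 12.25, 12.37, 12.28, 12.17 and 12.21 and its 120 ppm values 12.03, 12.07, 11.98, 12.08 and 12.06, also apart; fitted with the air and 120 ppm arrays alone it did not pass (adjusted p = 0.0649). Rpl39 (-0.22, adjusted p = 0.0568), Rpl26 (-0.19, adjusted p = 0.117) and Rpl19 (-0.14, adjusted p = 0.103) did not pass as deposited but did on centred arrays (adjusted p = 0.0106, 0.0253 and 0.0123). Rpl31 (-0.047) and Rpl17 (-0.015) passed under neither scaling. For Rpl17 the sign turned to 0.01 after a second quantile normalization and to 0.034 with all its probe sets averaged.

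Rpl11 belongs to the particle of 5S ribosomal RNA that binds MDM2, the inhibitor of p53, when ribosome assembly is disturbed. Its change at 120 ppm was -0.18 ± 0.06 (SE; adjusted p = 0.0324), from 11.71, 11.79, 11.8, 11.66 and 11.74 in air to 11.57, 11.53, 11.47, 11.62 and 11.6. The groups did not overlap, but the call is marginal: it was lost in 5 of the 10 fits that each left out 1 array, namely air replicate 2, 3 or 5 or 120 ppm replicate 2 or 3 (highest adjusted p 0.0839). A second quantile normalization and a fit of the air and 120 ppm arrays alone lost it too. Rpl5, its partner, has no probe set of its own here.

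In the small subunit, Rpsa and Rps19 led. Rpsa read 11.5, 11.59, 11.53, 11.64 and 11.58 at 120 ppm, all below its air values (-0.31 ± 0.081, adjusted p = 0.00699), and at 40 ppm, where 4 arrays lay between 11.47 and 11.5, the difference was -0.38 (adjusted p = 0.00215). A second Rpsa probe set, with a mean of 2.891 near the floor of the array, was 0.25 higher at 120 ppm (adjusted p = 0.0796), and the mean of both probe sets gave -0.034 (adjusted p = 0.782). Rps19, the gene first found mutated in Diamond-Blackfan anaemia, went from 11.15, 11.18, 11.25, 11.01 and 10.99 to 10.78, 10.85, 10.8, 10.89 and 10.86 (-0.28 ± 0.064, adjusted p = 0.00289). Its values at 1 ppm, 10.87 to 10.97, also lay below all air arrays (-0.20, adjusted p = 0.639), while those at 10 ppm, 10.98 to 11.19, overlapped air. Rps12 fell by 0.28 (SE 0.07, adjusted p = 0.00641).

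In the probe sets used, transcripts for proteins that line the entry and decoding path of the messenger RNA did not pass as deposited. Rps3, also on that list, has no probe set of its own here. Rps2 had -0.11 (adjusted p = 0.187), Rps15 -0.13 (adjusted p = 0.21) and Rps23 -0.025 (adjusted p = 0.838) at 120 ppm. Other bright probe sets had larger falls. For Rps2, 1 of them passed (-0.235, adjusted p = 0.0146) and 1 did not (-0.178, adjusted p = 0.0552). That of Rps15 did not pass (-0.202, adjusted p = 0.051). With all its probe sets averaged Rps2 passed. After centring, in the probe sets used, Rps2 (adjusted p = 0.0212) and Rps15 (adjusted p = 0.0294) passed and Rps23 (adjusted p = 0.258) did not. Rps6 encodes the substrate of S6 kinase, whose phosphorylation is the classical reporter of mTOR activity. The transcript level read here does not measure that activity. At 120 ppm Rps6 stayed within the air range but for 1 array. Its air values were 12.56, 12.41, 12.48, 12.51 and 12.48, and its 120 ppm values 12.39, 12.46, 12.47, 12.48 and 12.49 (-0.029 ± 0.075, adjusted p = 0.816). At 40 ppm its difference was 0.11 (adjusted p = 0.353).

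The log2 change at 120 ppm was above 0 in 7 members, and 0 of these passed or had an unadjusted p under 0.05. Rps15a, near the floor with an air mean of 2.69, had 0.24 (adjusted p = 0.203), Rpl22l1 0.17 (adjusted p = 0.488), Rpl39l 0.098 (adjusted p = 0.375), Rpl4 0.09 (adjusted p = 0.624) and Rps7 0.053 (adjusted p = 0.581). Rpl3 and Rpl23, named only to complete the count, had 0.012 and 0.005. After centring Rpl4 turned to -0.005 and Rps7 to -0.042.

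**Figure D4:**
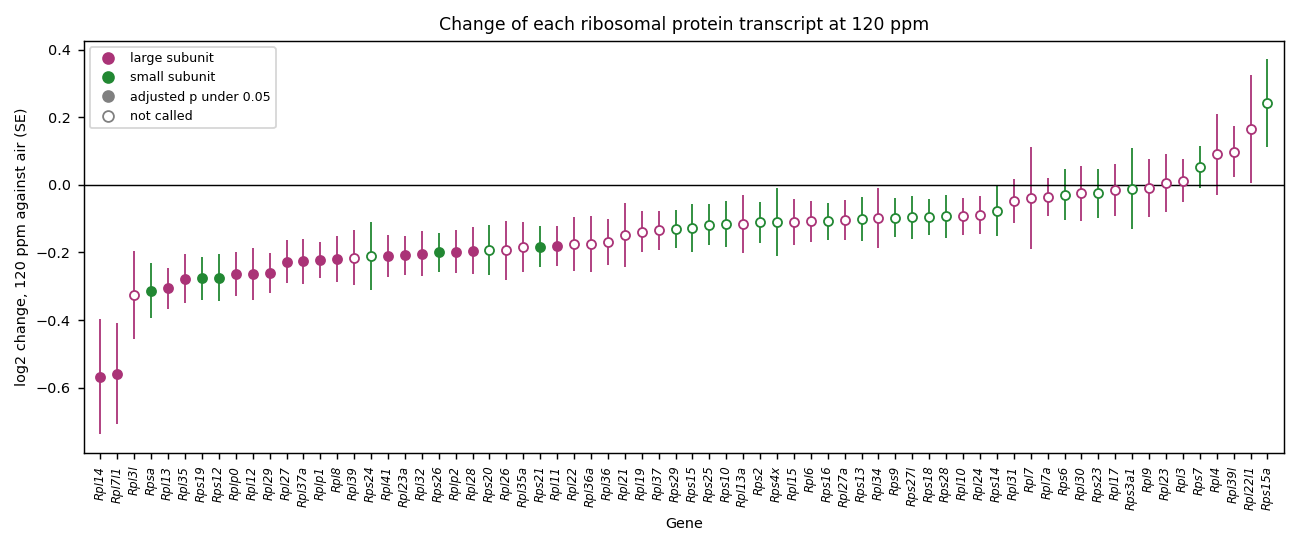
Log2 change at 120 ppm against air for each of the 70 genes, in order, with bars of 1 SE; large-subunit genes in purple, small-subunit genes in green, filled where the adjusted p was under 0.05. The 22 filled points are all below 0, at -0.181 or lower, and 7 open points lie above 0.

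Several paralogues, relatives of other ribosomal protein genes, were among the members, and 1 of the 5 measured fell. Rpl7l1, a relative of Rpl7 that takes part in large-subunit assembly, had values of 7.9, 7.66, 7.96, 7.4 and 7.24 in air and 7.03, 7, 7.17, 7.13 and 7.03 at 120 ppm. The ranges did not overlap, and the fall of 0.56 (SE 0.15, adjusted p = 0.00752) was 32.1%. At 40 ppm it was 0.52 lower (adjusted p = 0.015), with 1 array, at 7.3, inside the air range. Its replicates 1 to 3 read above replicates 4 and 5 in air and at 1, 5 and 10 ppm, but not at the higher concentrations. Another Rpl7l1 probe set also fell (-0.38, adjusted p = 0.0442), the third had -0.10 (adjusted p = 0.666), and the mean of all 3 had -0.35 (adjusted p = 0.0542). Rps27l, a p53-responsive relative of Rps27, had -0.096 (adjusted p = 0.297). The muscle paralogue Rpl3l had -0.33 (adjusted p = 0.0641) at an air mean of 3.19, where the array's noise limits the reading.

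Rpl14 had the largest change of all members, but at a level where it is poorly measured. Its air values spread from 4.64 to 5.64 and overlapped those at 120 ppm, 4.06 to 4.9 (-0.57 ± 0.17, adjusted p = 0.018). The call was lost without air replicate 2 or 3 or 120 ppm replicate 2 (adjusted p up to 0.0783) and when the air and 120 ppm arrays were fitted alone (adjusted p = 0.0535).

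The remaining probe sets of the same genes depended on their level. Of 38 further probe sets with a mean of 7 or more, 15 were lower at 120 ppm and 0 higher, with a median of -0.19. Of 25 with a mean under 7, 0 were lower and 5 higher. These 5 belong to Rpl22, Rpl24, Rps20 and Rps24 (2 of them), which are named because of this count. For Rps20, 1 dim probe set went from a mean of 3 in air to 3.6 (0.60 ± 0.11, adjusted p = 0.000377), while its 2 bright probe sets had -0.19 and -0.21 (adjusted p = 0.0619 and 0.0512). For Rpl22, the probe set with a mean of 6.98 had 0.42 (adjusted p = 0.014) and the one with 10.16 had -0.18 (adjusted p = 0.116). Among the 22 other probe sets of the genes that fell, 19 were below 0 and 12 passed as lower. Mouse ribosomal protein genes have many near-identical processed pseudogenes, and 16 of the 70 probe sets used carry the array maker's x mark for probes that can bind other transcripts, 5 of them among the 22 that fell. Those readings cannot be assigned to the parent gene alone.

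Within groups the members varied together. After each group's mean was removed, the mean correlation between pairs of members over the 35 arrays was 0.178, and 0.197 among the 65 with a mean of 10 or more, against 0.021 between 884 genes of that level and 0.005 between all genes. It was 0.168 within the large subunit and 0.204 within the small. Mitochondrial ribosomal proteins had 0.203, ribosome biogenesis factors 0.147 and initiation factors 0.033. Rpl27a (r = 0.76) and Rps12 (0.73) followed the mean of the other members most closely and Rps14 (-0.12) the least; Rpl27a and Rps14 were chosen after these values were seen. All these values share the array's own labelling and scaling.

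Of the other genes of protein synthesis, the mitochondrial ribosomal proteins, nuclear genes for the separate ribosome of mitochondria, also had more falls than rises. Of 73, 29 fell and 0 rose at 120 ppm, with a median of -0.19, and at 40 ppm 23 fell and 1, Mrps17, rose. On centred arrays 40 fell and 0 rose at 120 ppm, with a median of -0.29. Mrpl38 fell by 0.65 (SE 0.1, adjusted p = 6.81e-05), from a mean of 8.74 in air to 8.09, and Mrps18b by 0.63 (SE 0.1, adjusted p = 8.92e-05).

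The lists of translation factors held both rises and falls. Of 11 genes of elongation and other TOP messages, 2 rose and 2 fell, with a median of 0.013. Pabpc1, the poly(A)-binding protein and itself a TOP message, rose by 0.33 (SE 0.063, adjusted p = 0.000594), and Eef1b2, an exchange factor of elongation factor 1, fell by 0.26 (SE 0.062, adjusted p = 0.00408). Of 24 initiation factors 2 rose and 2 fell, with a median of 0.004. Eif3b, a subunit of the eIF3 scaffold, fell by 0.34 (adjusted p = 0.00162), and Eif4b, a cofactor of the cap-bound helicase, stood 0.28 higher (adjusted p = 0.0186). With each array centred Eif4b no longer passed (adjusted p = 0.121). After centring, 1 rose and 2 fell of the TOP list, with a median of -0.082, and 1 rose and 3 fell of the initiation factors, with a median of -0.091.

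Of 46 ribosome biogenesis factors 5 were higher and 8 lower, with a median of 0.046, or 3 and 8 with a median of -0.049 on centred arrays. Bop1, needed for maturation of the large subunit, fell by 0.60 (adjusted p = 0.000461), and Nhp2, a core protein of H/ACA ribonucleoproteins, by 0.47 (adjusted p = 0.00155). Of 16 RNA polymerase I genes 1 rose and 2 fell (0 and 5 on centred arrays), led by Znrd1, a small subunit of the enzyme, which fell by 0.53 (adjusted p = 0.00102). Of 19 measured regulators of ribosomal protein synthesis, among them mTOR complex genes, Larp1 and Mdm2 but not the p53 gene itself, 1 passed. This was Myc, a transcription factor that drives ribosome production, which rose by 0.77 (SE 0.26, adjusted p = 0.0345), and the call ended on centred arrays (adjusted p = 0.0671). The SD of Myc was 0.36 in air and 0.87 at 120 ppm. On centred arrays 1 regulator, Larp1, was lower (-0.25, adjusted p = 0.0219) and 0 were higher. Of the 2 measured ribosomal proteins whose symbols the rule does not take, Fau and Rpl36al, 0 passed at 120 ppm (-0.048 and -0.15), each with an unadjusted p above 0.05, and Rpl36al was lower at 40 ppm (-0.27, adjusted p = 0.0246). On centred arrays Rpl36al was also lower at 120 ppm (-0.25, adjusted p = 0.0367). Differences between these lists were not tested.

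**Figure D5:**
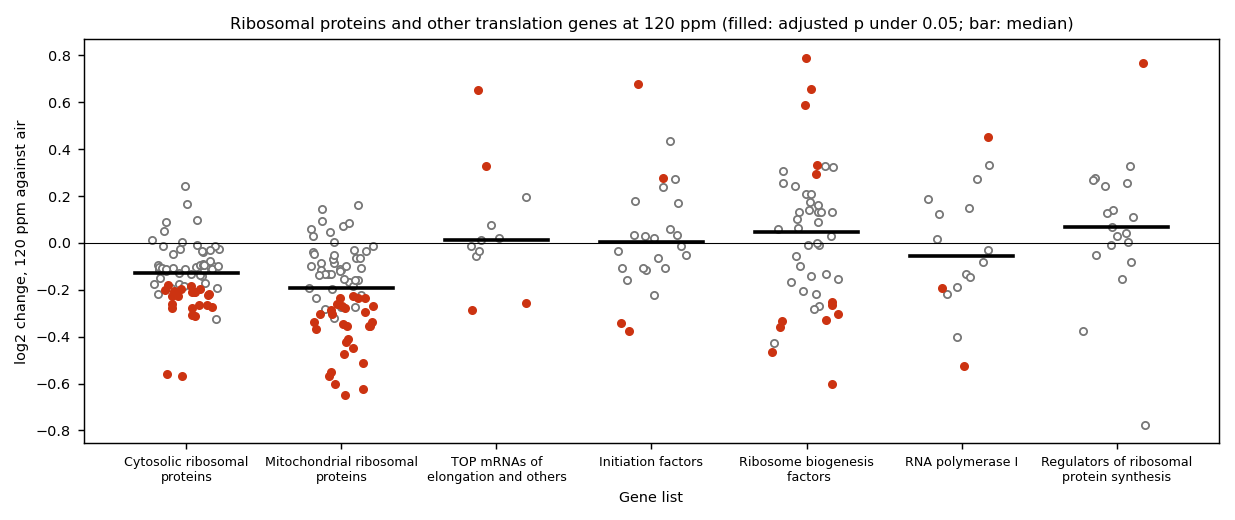
Log2 change at 120 ppm against air, without array centring, for each gene of 7 lists, 1 point per gene, filled where the adjusted p was under 0.05, with a bar at each list's median. The cytosolic and mitochondrial ribosomal proteins have medians of -0.129 and -0.191 and no filled point above 0, while the other lists have filled points on both sides or, for the regulators, 1 above 0.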

How the data were processed

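The authors deposited log2 values, 1 per probe set and array; the submitters' processing notes list RMA and Partek, in unstated versions, roles and order. The base, not given in the sources used here, was taken as 2 from the range (1.74 to 14.23), and percent changes rest on that. There were 45141 probe sets, less 104 controls; a platform annotation named 1 gene for 28898, several for 551 and none here for 15588, and only the first kind was used for members. A group-means model was fitted to all 35 arrays with limma 3.58.1 (R 4.3.3; data.table package, version 1.17.8), with 28 residual and 5.41 prior degrees of freedom, and p-values were adjusted over 45037 probe sets. SE is that of the fit and SD that of 5 mice. The script was tested on simulated data. Array number limits the precision, and pairs of arrays correlated at 0.965 to 0.995.

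Named members are the largest changes past the threshold (10 each way at 120 ppm, 6 at 40 and at 20 ppm), the 5 smallest F test p, all role lists of up to 7 genes, and the 5 largest rises, none of which passed; of other lists, up to 4 passing genes. Members and lists were chosen with earlier results of these data known, so their counts are no independent support. No list was tested as a set. Alternatives were array centring, a second quantile normalization, brighter probe sets, other priors and weights, replicate terms, fits of fewer groups, averaged probe sets and single arrays left out.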

Additional observations from a re-analysis of the deposited data

Results flagged for a closer look

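In 22 of the 260 groups of 5 examined (30 named members in each group, the first genes of the other lists in air and at 120 ppm, and the array measures), 1 array stood apart from the rest by more than 0.71 of the group's range; chance alone would do so in about 1 of 20 groups. The listed values are log2.

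Replicate 5 of the 20 ppm group was apart in 5 members, below the others for Rpl26 (11.99, next 12.21) and above them for Rpl31 (12.47, next 12.19), Rps6 (12.82, next 12.52), Rps19 (11.21, next 11.04) and Rps23 (11.62, next 11.33). The same array had the low GAPDH 3' minus 5' difference (-0.4, next 0.12). In that group replicate 3 was high for Rplp1 (12.82, next 12.64). Replicate 1 of the 5 ppm group was low for Rpl4 (11.25, next 11.77), Rpl26 (11.84, next 12.26), Rps6 (12.18, next 12.4) and Rps12 (10.11, next 10.33), and high for Rpl3l (3.21, next 3).

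Replicate 2 of the 10 ppm group was high for Rpl11 (11.82), Rpl19 (12.18) and Rplp2 (12.39). Replicate 2 of the 40 ppm group was high for Rpl31 (12.21), Rpl7l1 (7.3), Rps7 (11.98) and Rpsa (11.58), and replicate 5 of that group was low for Rplp2 (11.97). Rps2 was low in air replicate 5 (12.65, next 12.78) and in 120 ppm replicate 4 (12.56, next 12.65).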

How the results depend on the processing

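The sign of the median and the absence of rises at 120 ppm held under the alternatives run, while the number of members past the threshold moved. Centring each array on its median gave 49 lower at 120 ppm (median -0.224), 31 at 40 ppm (median -0.201) and 1 at 20 ppm. It gave 34 by the F test and 53 by the slope in either direction. The share of all probe sets after centring was not counted for the F test or the slope. Under the alternatives other than this centring it was not counted for any result. Under this centring Rpl4 became -0.005 and Rps7 -0.042. At 20 ppm 1 member was lower among brighter probe sets alone, 2 with an intensity-dependent prior and 2 with array weights. Fitting only the groups compared gave 11 lower at 120 ppm and 11 at 40 ppm. Averaging all probe sets of a gene gave 2 higher at 40 ppm (Rpl22 and Rps20), and turned Rpl17 to 0.034, as the second quantile normalization did to 0.01. Leaving out single arrays gave 14 to 23 lower at 120 ppm, the fewest without air replicate 2 or 3, 10 to 19 at 40 ppm, the fewest without air replicate 3, and 0 to 5 at 20 ppm, the most without 20 ppm replicate 3; the median at 120 ppm ran from -0.147 to -0.117 and Rpl17 from -0.047 to 0.019. The cause of these shifts was not tested. Of 14 named members that fell, 8 passed in all settings that left out no array and 11 with any single air or 120 ppm array left out.

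With the replicate number as a block (replicate block) 22 members were lower at 120 ppm, 16 at 40 ppm and 1, Rpsa, at 20 ppm, and as a linear term 22, 18 and 1. Between arrays sharing a number the median correlation was 0.027 over 105 pairs, and between the others it was -0.011 over 420. A correlation over 0.1 was found in 31 of the 105 and in 94 of the 420. Of 35 arrays, 8 correlated best with their own number. Such medians do not show whether single genes followed the number. Rpl7l1 was higher in replicates 1 to 3 than in replicates 4 and 5 in air and at 1, 5 and 10 ppm. The least fall at 120 ppm that passed in the probe set used for a gene was -0.181.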
